A study of Mus musculus with 12 samples.

Results

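Wnt beta-catenin feedback and target genes were read as 10 rows of the count table, chosen by gene symbol among the 46095 genes listed: Glul, Axin2, Lgr5, Tbx3, Nkd1, Rnf43, Znrf3, Sp5, Notum and Tnfrsf19. They were followed in every one of 12 RNA sequencing libraries of hepatocellular carcinomas (HCC, cancers of hepatocytes) that diethylnitrosamine (DEN) had induced in mouse liver. DEN is a carcinogen that hepatocytes turn into a DNA-alkylating agent. The 2 groups were 7 Pck1-null tumours (KO) and 5 wild-type tumours (WT), and both groups carried the DEN treatment. Pck1 encodes the cytosolic phosphoenolpyruvate carboxykinase of glucose synthesis. The study compared these tumours to ask what Pck1 does in DEN-induced HCC. The Pck1 allele, the cells in which it was deleted, strain, age, sex and DEN dose are unknown here, as is whether a library held 1 nodule or pooled tissue.

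Wnt proteins bind Frizzled and Lrp receptors on the cell surface and stop a destruction complex built on Axin from degrading beta-catenin, which then enters the nucleus and switches on genes together with TCF and LEF factors. Several of the genes switched on feed back on the pathway: Axin2 rebuilds the destruction complex, Nkd1 acts on Dishevelled, Rnf43 and Znrf3 remove Frizzled from the membrane, and Notum strips Wnt of its lipid. In the liver the pathway is active in the hepatocytes around the central vein, where it drives Glul, and liver tumours with activated beta-catenin are known for high Glul, Axin2, Lgr5, Tbx3 and Notum.

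The libraries fell into 2 depth classes, a shallower one of 4 KO and 3 WT libraries with 17462102 to 23663506 counts and a deeper one of 3 KO and 2 WT libraries with 43071365 to 46747125 counts. Pck1 itself was at 111 to 1167 CPM in KO and 1063 to 5822 CPM in WT (CPM, counts divided by library size and corrected for library composition), so the highest KO library overlapped the lowest WT library. KO replicates 1, 2 and 3 had 219, 709 and 1167 CPM of Pck1, and KO replicates 4 to 7 had 111 to 329 CPM. Xist, which marks female tissue, exceeded 10 CPM in 6 libraries (KO replicates 1, 2, 3, 5 and 6, with WT replicate 4) and stayed below 1 CPM in the remaining 6. The 8 hepatocyte marker genes summed to 82488 to 217052 CPM in KO and 81004 to 272362 CPM in WT, and every one of them was detected in all 12 libraries. Alb and Trf gave most of each sum. Of the 8, 2 had a positive and 6 a negative log2 fold change of KO over WT (53.7% of all genes tested positive). Apoc3 and Ttr were lower at an unadjusted p under 0.05 in edgeR, as were 7.44% of all genes, and neither passed after adjustment. Apoc3 was at 102 to 1076 CPM in KO and 1174 to 2642 CPM in WT, without overlap. Of all genes tested, 0.58% had KO wholly below WT.

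The Wnt feedback and target genes differed most among the KO tumours themselves. KO replicate 1 had the highest level of all 10 genes, KO replicate 3 was among the top 3 libraries for 10 of 10 and KO replicate 2 for 9 of 10. KO replicate 5 lay at the other end and had the lowest level of 7 of the 10. When each gene was scaled to its own mean and SD over the 12 libraries, the mean over the 10 genes was 1.55, 0.99 and 1.29 SD units in KO replicates 1, 2 and 3, 0.17 and 0.21 in KO replicates 4 and 7, −0.82 in KO replicate 6 and −1.21 in KO replicate 5. The same mean was 0.35 in WT replicate 1 and −0.31, −0.80, −0.85 and −0.56 in WT replicates 2 to 5. The largest step in this order, 0.64, separated KO replicates 1, 2 and 3 from WT replicate 1, which came next. In bulk tissue, fewer cells that express a gene and less of its RNA per cell cannot be told apart.

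**Figure D1:**
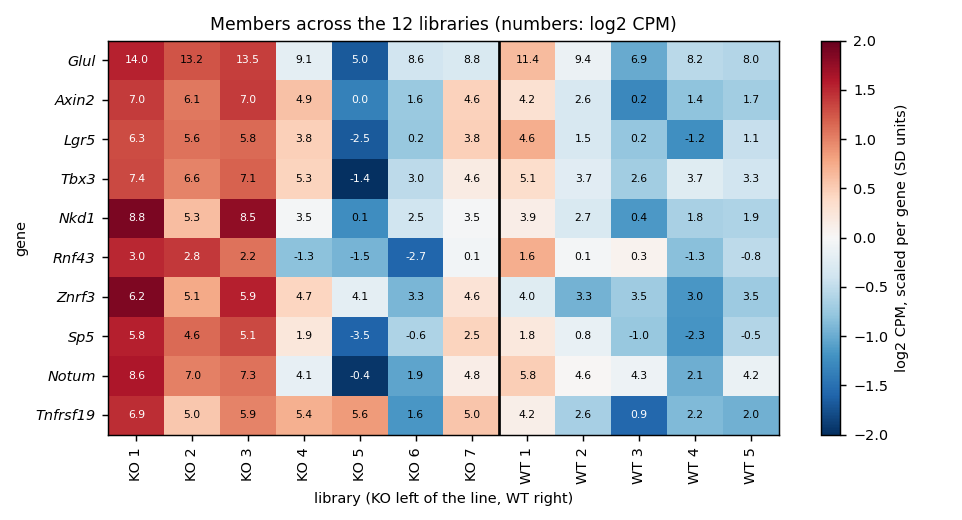
Heat map of the 10 genes (rows) in the 12 libraries (columns, KO left of the line and WT right), coloured by log2 CPM scaled per gene in SD units, with log2 CPM printed in each cell. The columns of KO replicates 1, 2 and 3 are red in every row, and KO replicate 5 is blue in 8 rows but red for Tnfrsf19 (5.65 log2 CPM) and near the mean for Znrf3 (4.07 log2 CPM).

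Among the transcription factor genes of the list, Sp5 encodes a zinc finger protein of the Sp family and is a known direct target of beta-catenin and TCF. It lies on chromosome 2 from 70474923 to 70477726 (GRCm38.p6, the assembly of mm10). The lowest, median and highest levels of Sp5 were 0.0222, 5.65 and 55.9 CPM in KO. In WT replicates 1 to 5, Sp5 was at 3.47, 1.62, 0.422, 0.143 and 0.629 CPM. KO replicates 1, 2 and 3 stood at 23.6 CPM or more, and KO replicate 5 held 1 count of Sp5 in its whole library. RefSeq windows of 300 bases around the transcript start (250 before and 50 after) were found for 6 of the 10 genes, 8 windows in all, and were searched on both strands for CTTTGAA and CTTTGAT and for CTTTGTA and CTTTGTT, letters that TCF and LEF proteins are known to bind. Of all 32851 windows 16.9% held at least 1 match, and 1.94% held 2 or more. Among the 8 windows, that of Sp5 held 2 matches, 1 of the 2 windows of Tnfrsf19 held 1, and those of Glul, Axin2, Nkd1 and Rnf43 held none. The windows of Axin2 and Nkd1 lie inside the gene, downstream of its first base, so the outermost start of each was not searched. The window of Sp5 (chr2:70474673-70474972, plus strand), the matching window of Tnfrsf19 (chr14:61037938-61038237, minus strand) and the window of Axin2 (chr11:108920099-108920398, plus strand) are printed 5′ to 3′ because the levels of Sp5 and Axin2 followed each other closely while Tnfrsf19 parted from them in KO replicate 5. Capitals mark the matches, and a match is a run of letters, not a measured binding site.
Sp5: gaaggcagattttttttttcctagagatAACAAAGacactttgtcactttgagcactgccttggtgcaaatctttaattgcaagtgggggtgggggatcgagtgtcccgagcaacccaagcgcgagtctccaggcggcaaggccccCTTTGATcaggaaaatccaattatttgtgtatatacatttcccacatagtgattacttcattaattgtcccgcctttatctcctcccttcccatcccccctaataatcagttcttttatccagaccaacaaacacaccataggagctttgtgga
Tnfrsf19: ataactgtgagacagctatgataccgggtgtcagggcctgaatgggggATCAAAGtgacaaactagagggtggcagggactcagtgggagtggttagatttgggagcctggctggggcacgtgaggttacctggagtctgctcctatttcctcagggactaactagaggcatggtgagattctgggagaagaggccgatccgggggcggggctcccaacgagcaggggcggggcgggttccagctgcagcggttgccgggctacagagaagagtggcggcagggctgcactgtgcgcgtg
Axin2: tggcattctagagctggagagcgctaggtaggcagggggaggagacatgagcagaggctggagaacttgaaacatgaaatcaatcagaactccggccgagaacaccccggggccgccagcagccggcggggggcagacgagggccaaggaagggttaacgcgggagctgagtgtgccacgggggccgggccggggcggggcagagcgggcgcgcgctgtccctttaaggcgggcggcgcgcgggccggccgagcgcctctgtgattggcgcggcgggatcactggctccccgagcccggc

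Tbx3, a T-box transcription factor gene on chromosome 5 from 119670534 to 119684724, had a lowest, median and highest level of 0.310, 39.8 and 171 CPM in KO. WT replicates 1 to 5 had 33.9, 13.0, 5.83, 12.6 and 9.96 CPM of Tbx3. The groups overlapped: 4 of 7 KO libraries lay above all WT libraries, and KO replicate 5 lay below all of them. Glul, the glutamine synthetase that joins ammonia to glutamate, lies on chromosome 1 from 153899929 to 153909723. Its level was 15902, 9407 and 11642 CPM in KO replicates 1, 2 and 3 and 555, 31.7, 383 and 448 CPM in KO replicates 4 to 7. WT replicates 1 to 5 had 2764, 653, 116, 284 and 264 CPM of Glul. Glul thus took 1.61%, 0.895% and 1.15% of all counts in KO replicates 1, 2 and 3, against 0.00332% in KO replicate 5, and its highest level was 501 times its lowest.

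**Figure D2:**
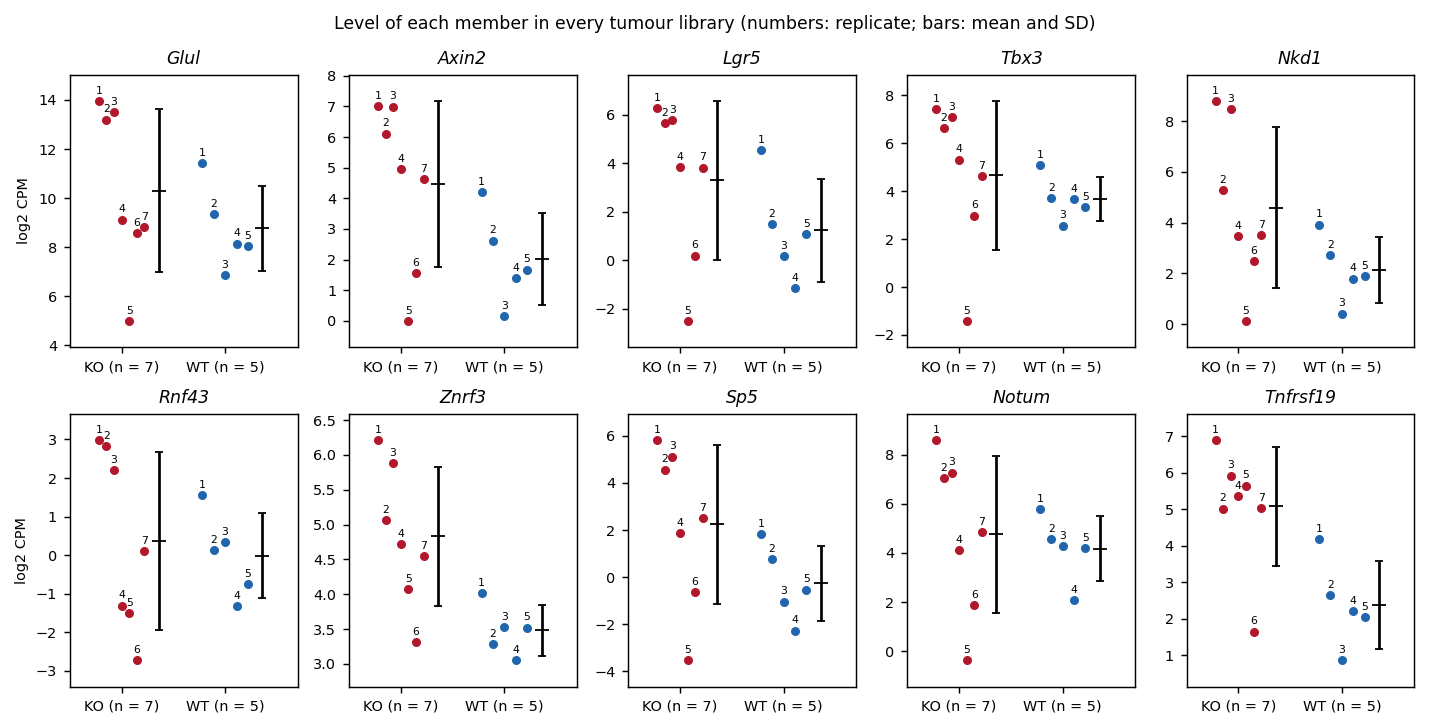
Level of each gene in log2 CPM (y axis, own scale per panel) in KO (red, n = 7) and WT (blue, n = 5), with replicate numbers beside the points and the mean and SD beside each group. Replicates 1, 2 and 3 stand at the top of the KO points for 9 genes, Znrf3 and Tnfrsf19 have 6 of 7 KO points above all WT points, and in the other 8 panels at least 1 KO point lies below all WT points.

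Of the feedback genes inside the cell, Axin2, the scaffold of the destruction complex, lies on chromosome 11 from 108917828 to 108950783. Its lowest, median and highest levels were 0.931, 30.6 and 129 CPM in KO. The WT levels of Axin2 were 18.4, 6.09, 1.05, 2.58 and 3.12 CPM in replicates 1 to 5. KO replicates 1, 2, 3, 4 and 7 lay above all WT libraries, KO replicate 6 within the WT range and KO replicate 5 just below it. Nkd1, which binds Dishevelled, lies on chromosome 8 from 88521342 to 88594887. It was at 447, 38.7 and 358 CPM in KO replicates 1, 2 and 3 and at 11.1, 1.02, 5.48 and 11.3 CPM in KO replicates 4 to 7. The WT levels of Nkd1 were 15.1, 6.50, 1.27, 3.39 and 3.62 CPM. KO replicate 2 thus lay far below KO replicates 1 and 3 in Nkd1, although its Axin2 level of 69.0 CPM was nearer to theirs (129 and 127 CPM).

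The feedback genes at the cell surface had unlike ranges. Rnf43 and Znrf3 encode related transmembrane ubiquitin ligases that clear Frizzled receptors, and both genes lie on chromosome 11 (87663087 to 87735539 and 5276329 to 5444847). Rnf43 was the least abundant of the 10 for its length in most libraries, with 0.0862, 1.01 and 7.83 CPM as its lowest, median and highest level in KO and 2.88, 1.03, 1.19, 0.334 and 0.528 CPM in WT replicates 1 to 5. It had no more than 187 counts in any library and as few as 4 in KO replicate 6, so its levels are imprecise. Znrf3 had the narrowest range of the 10, with a highest level 8.99 times its lowest. Its lowest, median and highest levels were 9.85, 26.2 and 73.8 CPM in KO, against 16.2, 9.63, 11.5, 8.21 and 11.4 CPM in WT replicates 1 to 5. In Znrf3, 6 of 7 KO libraries lay above all WT libraries, and KO replicate 6 lay inside the WT range.

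Notum, a secreted enzyme that inactivates Wnt, lies on chromosome 11 from 120653788 to 120661193. It had 0.709, 28.8 and 384 CPM as its lowest, median and highest level in KO and 54.5, 23.6, 19.3, 4.20 and 18.2 CPM in WT replicates 1 to 5. KO replicates 5 and 6 lay below all WT libraries, and KO replicates 1, 2 and 3 above all of them. Lgr5, an R-spondin receptor that marks stem cells in several tissues and pericentral hepatocytes in liver, lies on chromosome 10 from 115450314 to 115587780. Its lowest, median and highest levels were 0.111, 14.3 and 77.5 CPM in KO, against 23.3, 2.76, 1.05, 0.382 and 2.06 CPM in WT replicates 1 to 5. KO replicate 5 held 5 counts of Lgr5 and WT replicate 4 held 8.

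Tnfrsf19, also called Troy, is a member of the tumour necrosis factor receptor family and lies on chromosome 14 from 60963834 to 61046855. It was at 119, 32.4, 60.6, 40.9, 50.2, 3.08 and 32.8 CPM in KO replicates 1 to 7. In WT replicates 1 to 5, Tnfrsf19 was at 18.1, 6.16, 1.76, 4.53 and 4.07 CPM. All KO libraries other than replicate 6 lay above all WT libraries, KO replicate 5 included. KO replicate 5 ranked 3rd in Tnfrsf19 and 6th in Znrf3 among the 12 libraries, while it was last in Glul, Axin2, Lgr5, Tbx3, Nkd1, Sp5 and Notum and next to last in Rnf43.

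Per kilobase of exon (the union of exons in GENCODE M21), Glul was the most abundant of the 10 genes in 11 of 12 libraries. Its median was 167 CPM per kilobase in KO and 85.5 CPM per kilobase in WT. In KO replicate 5, Tnfrsf19 at 10.6 CPM per kilobase came first and Glul at 9.55 CPM per kilobase second. Notum followed at medians of 12 CPM per kilobase in KO and 7.99 CPM per kilobase in WT, and Rnf43 had medians of 0.154 CPM per kilobase in KO and 0.157 CPM per kilobase in WT. These lengths are approximate, because it is unknown here with which annotation the authors counted.

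Compared by genotype, all 10 genes had a positive log2 fold change of KO over WT, where 53.7% of all genes tested were positive. All 10 were above 1 on that scale, as were 5.05% of all genes tested. In edgeR's quasi-likelihood test none of the 10 reached an adjusted p below 0.05, and the test called 0 of 14666 genes (0%). All 10 had passed its filter on low counts. Their median log2 fold change was 2.55, beside 0.0336 over all genes tested. At an unadjusted p under 0.05, 5 of the 10 were higher in KO, where 7.25% of all genes tested were higher and 7.44% lower. These were Tnfrsf19 (2.80 ± 0.75 SE, adjusted p = 0.195), Znrf3 (1.60 ± 0.45, adjusted p = 0.207), Nkd1 (4.38 ± 1.49, adjusted p = 0.242), Axin2 (3.13 ± 1.13, adjusted p = 0.252) and Sp5 (3.81 ± 1.38, adjusted p = 0.255). Glul had 2.75 ± 1.38 (adjusted p = 0.377), Tbx3 2.18 ± 1.02, Lgr5 2.36 ± 1.31, Notum 2.10 ± 1.20 and Rnf43 1.33 ± 1.02. DESeq2 called those same 5 genes higher (adjusted p = 0.00341 for Tnfrsf19 to 0.0483 for Sp5), as against 1.68% of all genes called higher. Limma-voom with sample weights called Tnfrsf19 and Znrf3 (6.4% of all genes called higher), and limma-voom without weights called none of the 10 (0.00682%).

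The fitted fold changes lean on the highest libraries, and the mean log2 CPM gave smaller differences. Mean log2 CPM of Glul was 10.31 ± 3.34 (SD) over 7 KO libraries, against 8.77 ± 1.73 (SD) over 5 WT libraries. Axin2 averaged 4.46 ± 2.72 log2 CPM in KO and 2.01 ± 1.51 in WT, and Tnfrsf19 5.08 ± 1.64 in KO and 2.39 ± 1.20 in WT. The SD of log2 CPM was larger in KO than in WT for all 10 genes, a description with no test. This was not particular to them. The SD was also larger in KO for Pigr (1.64 against 0.36), Kdr (0.62 against 0.30) and Clec4f (2.33 against 0.92), markers of other lists. It was smaller in KO for Ctnnb1 (0.23 against 0.48) and Lgr4 (0.30 against 0.62), and the share over all genes was not computed. Without KO replicates 1, 2 and 3 the fold change of Glul was −1.21, that of Notum −0.93 and that of Rnf43 −1.495, and it was 2.20 for Tnfrsf19, 1.24 for Axin2, 0.96 for Sp5, 0.74 for Znrf3, 0.32 for Lgr5 and 0.27 for Tbx3 and for Nkd1. In that fit 2 of the 10 were higher at an unadjusted p under 0.05, as were 7.96% of all genes. Leaving out single libraries gave 5 to 9 genes at this level, with 9 without KO replicate 5 (7.14% of all genes) and 8 without WT replicate 1 (8.62%).

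Depth moved with the result, since KO replicates 1, 2 and 3 were all shallower libraries, as were KO replicate 7 and WT replicates 1, 3 and 4. With the depth class as a covariate, 3 of the 10 genes were higher in KO at an unadjusted p under 0.05, as were 7.61% of all genes in that fit. Within the shallower libraries the log2 fold change lay between 1.79 for Rnf43 and 5.01 for Nkd1, and 7 of the 10 genes were higher at an unadjusted p under 0.05, as were 5.18% of all genes in that fit. Within the deeper ones 0 of the 10 were, and 6.02% of all genes. There Tnfrsf19 was at 2.61 ± 1.17 (SE), Axin2 at 1.32 ± 1.504, Glul at −0.50 ± 1.12, Notum at −1.53 ± 1.19 and Rnf43 at −1.70 ± 0.75. The interaction of depth class and genotype, fitted over all genes, called 0 of 14666 genes. The difference of log2 fold changes, deeper minus shallower, was negative for all 10 genes, from −4.80 for Nkd1 to −0.29 for Tnfrsf19. The share of all genes with a negative difference was not computed. The 10 signs are not independent, since all rest on the same libraries, KO replicates 1, 2 and 3 among them. At an unadjusted p under 0.05, 3 of the 10 were negative (Rnf43, Notum and Nkd1, with unadjusted p = 0.0189, 0.0286 and 0.0293 in edgeR), as were 4.56% of all genes, and the adjusted p ran from 0.514 for these 3 to 0.959 for Tnfrsf19. KO replicates 1, 2 and 3 were also Xist-high, as were KO replicates 5 and 6, the lowest KO libraries in mean scaled level. With the Xist class as a covariate, Glul was at 0.31, Nkd1 at 1.95, Axin2 at 2.77 and Tnfrsf19 at 2.73, and 2 of the 10 genes were higher at an unadjusted p under 0.05, as were 5.35% of all genes in that fit.

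**Figure D3:**
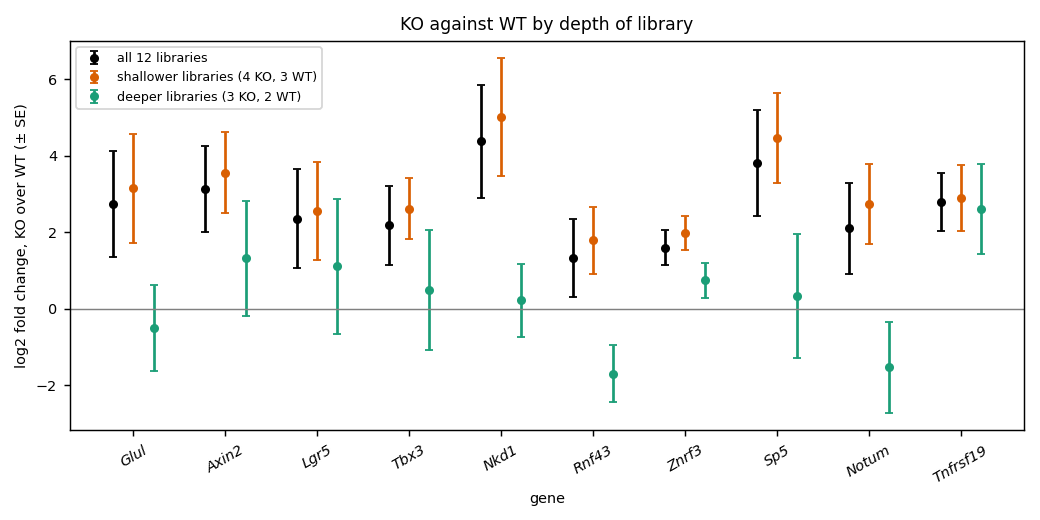
Log2 fold change of KO over WT with its standard error (y axis) for each gene (x axis) over all 12 libraries (black), the shallower ones (orange, 4 KO and 3 WT) and the deeper ones (green, 3 KO and 2 WT). Tnfrsf19 is at 2.90 among the shallower ones and at 2.61 among the deeper ones, while Glul is at 3.15 and −0.50.

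KO replicates 1, 2 and 3 stood apart from the other libraries, so correlations between the genes were taken over the other 9 (4 KO and 5 WT), which span both depth classes and both Xist classes. Of the 45 pairs, 43 had a positive Pearson's r of log2 CPM, the median r was 0.66, and 20 pairs had an adjusted p under 0.05 in exact two-sided permutation tests over 362880 orderings (15 pairs by Spearman's rho). Pairs of other genes were not tested in this way. The count therefore does not show whether these 10 genes move together more tightly than other genes do. Lgr5 and Sp5 were the closest pair (r = 0.97, exact permutation p = 0.000105, adjusted p = 0.00265; rho = 0.93, exact p = 0.00075, adjusted p = 0.00656), with r = 0.98 after leaving out the 2 libraries farthest from the median of Lgr5. Axin2 and Nkd1 had r = 0.94 (exact permutation p = 0.000408, adjusted p = 0.00372) and rho = 0.92 (exact p = 0.00131, adjusted p = 0.00656), and r = 0.97 without the 2 farthest libraries. Glul and Nkd1 had r = 0.91 (exact permutation p = 0.000165, adjusted p = 0.00265) and rho = 0.92 (exact p = 0.00131, adjusted p = 0.00656), and again r = 0.91 without the 2 farthest. Over the 28 pairs that hold neither Tnfrsf19 nor Znrf3, r ran from 0.30 to 0.97 with a median of 0.82.

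Rnf43, Znrf3 and Tnfrsf19 had a median r of 0.38, 0.39 and 0.27 over their 9 partners, and the other 7 genes had medians of 0.76 to 0.86. These values depend on a few libraries. Without the 2 libraries farthest from the median of the first gene of each pair, the median r of Tnfrsf19 was 0.75, that of Axin2 and Tbx3 0.76, that of Notum 0.68 and that of Glul 0.63, while Rnf43 had 0.47 and Znrf3 0.33. KO replicate 5 was among the libraries left out in 6 of the 9 pairs with Tnfrsf19. Rnf43 passed the threshold with Notum alone (r = 0.76, rho = 0.92), and Znrf3 and Tnfrsf19 with each other alone (r = 0.84, exact permutation p = 0.00985, adjusted p = 0.0246; rho = 0.65, exact p = 0.0666, adjusted p = 0.150). For Glul and Tnfrsf19 the values were r = 0.02 and rho = 0.22, with exact permutation p = 0.970 and 0.581 (adjusted p = 0.970 and 0.654), and r was 0.68 without KO replicate 5 and WT replicate 1. Tbx3 and Tnfrsf19 likewise had r = −0.05 over the 9 libraries and r = 0.94 without KO replicates 4 and 5. Glul and Notum, with r = 0.77 (adjusted p = 0.0472), had r = 0.10 without KO replicate 5 and WT replicate 1, and the other 19 of the 20 called pairs stayed above 0.5 in this check. KO replicates 4 and 7 and WT replicate 1 lay above the other 6 of these libraries in mean scaled level. Within those 6, a choice made after seeing the levels, the median r was 0.42, from −0.91 to 0.98, and 0 pairs passed the adjusted threshold (9 at an unadjusted exact p under 0.05). Leaving out the libraries with the highest levels narrows the range by construction, and the 720 orderings of 6 libraries allow no p under 0.00278, so this count does not show what the calls over 9 libraries rest on.

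**Figure D4:**
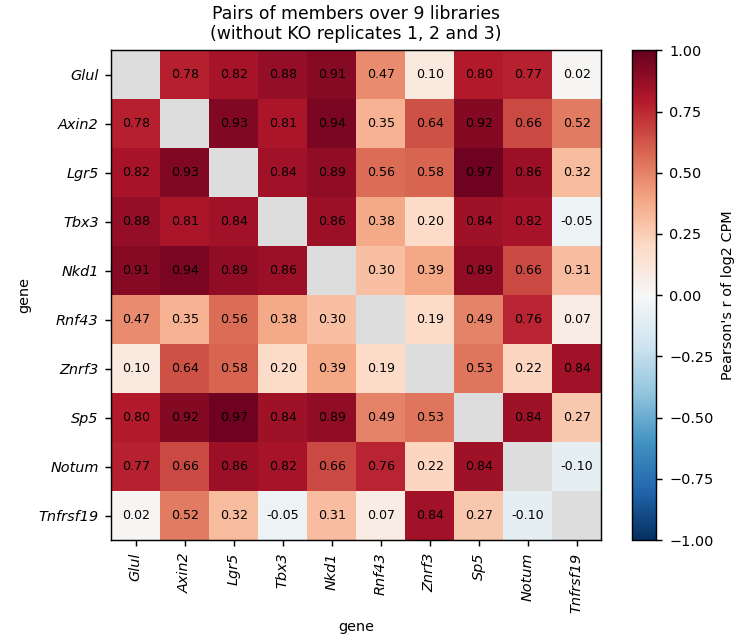
Pearson's r of log2 CPM for each pair of genes (rows and columns) over the 9 libraries without KO replicates 1, 2 and 3, on a scale from −1 (blue) to 1 (red). Glul, Axin2, Lgr5, Tbx3, Nkd1, Sp5 and Notum form a block with r of 0.66 or more, and Tnfrsf19 has its highest r, 0.84, with Znrf3.

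The libraries also differed in the proportions of the genes. In KO replicates 4 and 7 the CPM of Glul was 18.2 and 18.1 times that of Axin2, and in KO replicate 5 it was 34.1 times, against 91.8 to 136 times in the other KO libraries and 84.6 to 150 times in WT. KO replicates 4 and 7 had more Axin2 than WT replicate 1 (30.6 and 24.7 CPM, against 18.4 CPM) and less Glul (555 and 448 CPM, against 2764 CPM). Nkd1 was 3.47 and 2.82 times Axin2 in KO replicates 1 and 3, 1.91 and 1.10 times in KO replicates 6 and 5, 0.364 to 0.561 times in KO replicates 2, 4 and 7, and 0.818 to 1.31 times in WT. Tnfrsf19 was 0.469 to 1.34 times Axin2 in 6 KO libraries and 0.983 to 1.76 times in WT, and 54.0 times in KO replicate 5, where Axin2 rested on 42 counts.

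**Figure D5:**
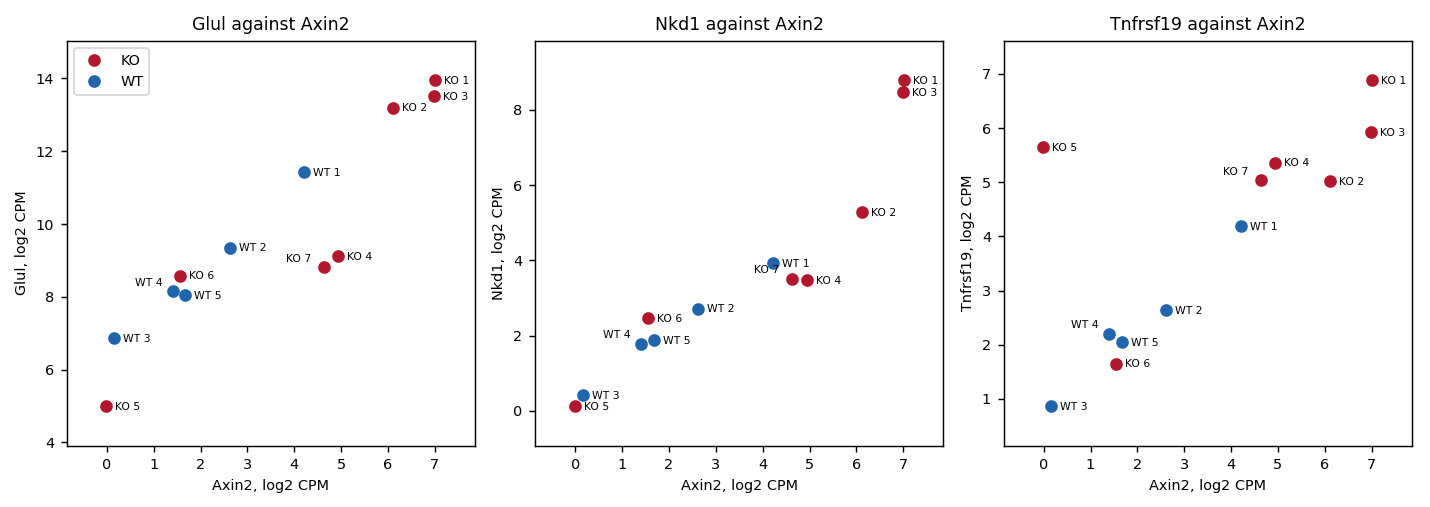
Log2 CPM of Glul, Nkd1 and Tnfrsf19 (y axes) against log2 CPM of Axin2 (x axis) in each library, KO in red and WT in blue. KO replicates 4 and 7 sit below WT replicate 1 for Glul at a higher Axin2, KO replicates 1 and 3 sit highest for Nkd1, and KO replicate 5 lies alone at the upper left for Tnfrsf19.

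The rest of the pathway was read from lists of its ligands, receptors, inhibitors, destruction complex, nuclear factors and other targets, in which edgeR called 0 genes after adjustment over all genes, as it did among all genes tested. Beside the counts of each list stand the shares over all genes tested in edgeR. These were 53.7% positive and, at an unadjusted p under 0.05, 7.25% higher and 7.44% lower in KO. Of the 25 Wnt ligand, R-spondin and Wnt secretion genes, 11 passed the filter on low counts, 5 with a positive and 6 with a negative log2 fold change, and 1 was higher at an unadjusted p under 0.05. Wnt6 was at 12.3 and 26.2 CPM in KO replicates 1 and 3, at most 0.657 CPM in the other KO libraries and at most 0.587 CPM in WT. Wnt4 reached 115 CPM in KO replicate 5, and its range was 0.431 to 12.8 CPM over the other KO libraries and 1.12 to 11.1 CPM over WT. Rspo3, which potentiates Wnt through Lgr receptors and is made by liver endothelium, was at 0 to 3.08 CPM in KO and 1.34 to 4.81 CPM in WT (−1.57 ± 0.85 SE, edgeR adjusted p = 0.407). Wnt2, another endothelial ligand, was at 0 to 1.62 CPM in KO and 0.0477 to 3.70 CPM in WT, and Wnt9b at 0 to 2.18 CPM in KO and 0 to 4.79 CPM in WT. In KO replicate 2, which was high in the targets, Wnt2 and Rspo3 had 0 counts and Wnt9b had 2.

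Of 17 Wnt and R-spondin receptor genes, 12 were tested and 9 were positive, with a median log2 fold change of 0.297, and 1 was lower at an unadjusted p under 0.05. Lgr4, the R-spondin receptor that hepatocytes express broadly, was at 32.2 to 59.0 CPM in KO and 40.0 to 118 CPM in WT (−0.71 ± 0.24 SE, edgeR adjusted p = 0.242). Limma-voom with sample weights called it lower, as it did 1200 of 14666 genes, and DESeq2 did not (adjusted p = 0.107). Those tools also called other genes of the lists. Weighted limma-voom called Sfrp2, Axin1, Ctbp1 and Tcf7 higher and Cyp2f2 lower. DESeq2 called Sfrp2, Apcdd1, Axin1, Ctbp1, Lef1 and Trib2 higher and Cyp2f2 lower. Of 14666 genes, DESeq2 called 247 higher and 242 lower, and weighted limma-voom called 938 higher. Fzd3 was at 18.8 CPM in KO replicate 5 and at most 2.39 CPM in all other libraries of either group. Of the 6 Wnt antagonist genes tested, 4 were positive, 3 of them at an unadjusted p under 0.05. Sfrp2 was at 22.6 and 15.9 CPM in KO replicates 1 and 3 and Apcdd1 at 13.5 and 23.0 CPM, against 1.67 CPM of Sfrp2 and 0 counts of Apcdd1 in KO replicate 2 and at most 0.587 and 0.593 CPM in WT.

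Beta-catenin and the genes of its destruction complex had a small positive median log2 fold change, where the median over all genes tested was 0.0336. Ctnnb1 was at 261 to 428 CPM in KO and 197 to 469 CPM in WT (0.33 ± 0.22 SE, edgeR adjusted p = 0.488), with its highest level in WT replicate 1. Of the 17 tested genes of that list 16 were positive, with a median of 0.202, and 2 had an unadjusted p under 0.05. Axin1, the constitutive counterpart of Axin2, was at 33.1 to 42.6 CPM in KO and 29.9 to 35.0 CPM in WT (0.29 ± 0.10, adjusted p = 0.237). Among 13 tested nuclear factors 7 were positive, and 4 were higher at an unadjusted p under 0.05. Tcf7 was at 51.4, 30.6 and 39.5 CPM in KO replicates 1, 2 and 3, 4.81 to 16.3 CPM in the other KO libraries and 3.24 to 15.4 CPM in WT (1.71 ± 0.62, adjusted p = 0.259). Lef1 was at 17.9, 1.19 and 17.3 CPM in KO replicates 1, 2 and 3, at most 1.41 CPM in the other KO libraries and at most 1.33 CPM in WT. Lef1, Sfrp2, Apcdd1 and Wnt6 shared with Nkd1 high levels in KO replicates 1 and 3 and much lower ones in KO replicate 2. Ctbp1, a corepressor, was at 76.0 to 86.3 CPM in KO and 58.2 to 66.5 CPM in WT, without overlap (0.35 ± 0.09, edgeR adjusted p = 0.187). Of all genes tested, 0.634% had KO wholly above WT and 0.58% wholly below.

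Among 13 tested general Wnt targets 10 were positive, with a median log2 fold change of 0.543, 1 of them at an unadjusted p under 0.05. Trib2, a pseudokinase gene, was at 44.9, 24.1 and 65.8 CPM in KO replicates 1, 2 and 3, at most 7.53 CPM in the other KO libraries and at most 7.20 CPM in WT (2.26 ± 0.73 SE, edgeR adjusted p = 0.228). Of the 15 pericentral hepatocyte genes, 15 were positive with a median of 1.43, and of the 13 periportal genes, 13 were negative with a median of −1.84. At an unadjusted p under 0.05 in edgeR, 3 pericentral genes were higher and 4 periportal genes lower, as were 7.25% and 7.44% of all genes tested. Rhbg, an ammonium carrier of pericentral hepatocytes, was at 0.776, 32.9 and 642 CPM as its lowest, median and highest level in KO and 4.78 to 66.0 CPM in WT. Cyp2e1, a pericentral cytochrome P450, was at 7251 to 7981 CPM in KO replicates 1, 2 and 3 and at 30.9 CPM in KO replicate 5, while the WT libraries had 375 to 2578 CPM. Cyp2f2, a periportal cytochrome P450, was at 0.837, 2.10 and 32.5 CPM in KO replicates 1, 2 and 3, 5.48 to 254 CPM in the other KO libraries and 79.3 to 1441 CPM in WT. The 13 periportal genes summed to 459, 832 and 1682 CPM in KO replicates 1, 2 and 3, 3322 CPM in KO replicate 5 and 3484 to 16012 CPM in KO replicates 4, 6 and 7, while WT had 4263 to 19214 CPM.

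The genes whose level over the 12 libraries was most like the mean scaled level of the 10 were ranked among the 14656 other genes tested, as a description with no test. The closest were Gulo (r = 0.981), which makes the last step of vitamin C synthesis in mice, Tspan12 (0.979), a tetraspanin of Frizzled receptor complexes, Gm35190 (0.974), Tcf7 (0.974) and Gm36520 (0.967). Rhbg (0.965), Pon2 (0.961), Glns-ps1 (0.952), Ccdc85b (0.951) and Bpifa5 (0.948) followed. Glns-ps1 is a glutamine synthetase pseudogene, so its reads may be shared with Glul. Of all those genes 63, or 0.43%, reached r of 0.9. Gulo was at 11.69, 10.94 and 10.65 log2 CPM in KO replicates 1, 2 and 3 and 5.13 log2 CPM in KO replicate 5, while WT had 6.45 to 9.73 log2 CPM. The most opposite were Cyp2a12 (−0.950), Tcf7l1 (−0.948), Smad7 (−0.945), Gpr157 (−0.943) and Irgq (−0.936). Tcf7l1, a TCF factor best known as a repressor, was at 1.72, 1.72 and 2.65 CPM in KO replicates 1, 2 and 3 and 20.6 CPM in KO replicate 5, while WT had 4.64 to 10.5 CPM. The same 12 libraries, with their depth and Xist classes, underlie all of these correlations. They include KO replicates 1, 2 and 3, which were left out of the pair correlations because they stand apart. Bpifa5, for example, was at 3.36 to 3.54 log2 CPM in those 3 and at most −0.12 log2 CPM elsewhere. How far each r rests on them was not tested.

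Markers of other liver cells moved with some of these libraries. The 9 endothelial markers summed to 145 to 227 CPM in KO replicates 1 to 5, 575 CPM in KO replicate 6 and 283 CPM in KO replicate 7, while the WT sums were 370 to 560 CPM. The 8 stellate and fibroblast markers summed to 145 to 482 CPM in KO and 187 to 688 CPM in WT, and the 7 Kupffer cell markers to 136 to 1106 CPM in KO and 274 to 656 CPM in WT. The 7 Kupffer cell markers differed among themselves, 3 with a positive and 4 with a negative log2 fold change. Clec4f was at 1.02 to 112 CPM in KO, below all WT libraries in 6 of 7, and 50.2 to 265 CPM in WT. Marco reached 294 CPM in KO replicate 6. The 7 cholangiocyte markers summed to 25.7 to 60.6 CPM in KO replicates 1, 2 and 3 and 4313 CPM in KO replicate 5, of which Spp1 alone gave 4254 CPM, against 153 to 973 CPM in WT. Every endothelial, stellate and Kupffer cell marker was detected in all 12 libraries, while Krt7 had 0 counts in KO replicate 2, Cftr in KO replicates 2 and 3, and Cldn7 in KO replicates 1, 2 and 6 and WT replicates 1 and 2. The part of these cell types in the levels of the Wnt genes was not tested.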

How the data were processed

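Trizol was used for RNA extraction, per the labels' protocols. The table holds whole-number read counts per gene symbol as deposited by the authors, without normalization. HISAT2 aligned the reads to mm10, per the submitters' processing notes. Counting program, strand setting and annotation: not given in the sources used here. Reads of overlapping genes and near-identical copies, such as Glul and its pseudogene, therefore cannot be told apart. By genotype label, 7 libraries are KO and 5 are WT, with replicates numbered in accession order. The title of KO replicate 7 begins with KP, unlike the other KO titles, and only its genotype label puts it in KO. Since no label says that they are separate animals, p-values measure only the spread between these samples, which may be technical. No pair within a group agreed within sampling noise (smallest chi-square per degree of freedom 71).

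The test on counts was that of edgeR 4.0.16 under R 4.3.3 (filterByExpr, minimum count 10, minimum total 15, TMM, robust quasi-likelihood F-tests, no covariates, Benjamini-Hochberg adjustment at 0.05 over 14666 genes). Standard errors are log2 fold changes divided by the root of F. A prior count of 2 was added for log2 CPM. Alternatives were RLE and upper-quartile scaling, no filter, 1 CPM in 5 libraries, DESeq2 1.42.0, limma 3.58.1 voom with and without sample weights, no robust estimation, covariates, depth subsets and each library left out. Leaving out KO replicates 1, 2 and 3 together, the interaction with depth and the choice of 9 and 6 libraries for correlations were added after seeing the data. The pairs of genes were tested by exact two-sided permutation (Python 3.11.15) and adjusted over 45 pairs. Fits were tested on simulated data first. Members and lists were chosen with earlier results of these data known. The named genes are the 10 members, up to 3 genes of each list by smallest p, the 10 most alike and 5 most opposite genes and a few fixed ones, of which the text names a part. Fzd3, Wnt4, Wnt6, Apcdd1, Spp1, Krt19, Epcam, Alb, Trf and Glns-ps1 are given for their levels. Of 170 list genes outside the members, Tf was matched as Trf, and 1 symbol could not be matched to a row of its own. Gene positions and promoter windows are from RefSeq (GRCm38.p6). Tbx3, Lgr5, Znrf3 and Notum had no window in the table used.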

Additional observations from a re-analysis of the deposited data

Results flagged for a closer look

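In 1 of 20 groups examined (10 genes in KO and in WT), a library stood far from the rest of its group by Dixon's criterion, a number that chance alone gives at about 1 in 20. It was the Tnfrsf19 level of KO replicate 6, at 1.65 log2 CPM, against 5.02 log2 CPM in the next lowest KO library. The gap was 0.643 of the range of KO, over the critical value of 0.568.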

How the results depend on the processing

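No paired analysis was possible because the labels give the KO and WT tumours no shared replicate numbers. Of 250 refitted fold changes of the 10 genes (25 alternatives each), 243 kept a positive direction. The exceptions were Glul (−0.50), Rnf43 (−1.70) and Notum (−1.53) within the deeper libraries, the same genes without KO replicates 1, 2 and 3 (−1.21, −1.495 and −0.93), and Rnf43 with limma-voom without weights (−0.20). Among other genes, Rhbg was at −0.37 within the deeper libraries and −0.61 without KO replicates 1, 2 and 3, and Wnt4 (−0.28) and Fzd3 (−0.45) turned within the shallower ones. The cause was not tested. Leaving out 1 library at a time called 0 of the 10 genes each time. All 10 had their lowest fold change without KO replicate 1 (Glul 2.20, Axin2 2.76, Notum 1.22), and 9 their highest without WT replicate 1 (Glul 4.06, Axin2 4.06). DESeq2 called 5 of the 10 and limma-voom with weights 2, and the other tools and settings 0. The count over all genes, 0 with edgeR, was 489 with DESeq2, 2138 with weighted limma-voom, 5 with limma-voom without weights, 3 with the depth covariate or without KO replicates 1, 2 and 3, 2 within the deeper libraries, 1 with upper-quartile scaling, no filter or the 1 CPM filter, and 0 to 65 with 1 library left out, the highest without KO replicate 6. The count of 20 correlated pairs ran from 16 to 23 with 1 library left out, was 19 on deviations from group means, and was 0 over the 6 lower libraries, where few orderings and a range narrowed by their choice limit the test. Correlations over the 7 KO libraries alone, and without KO replicates 1, 2 or 3 singly, were not run, since those 3 stand apart. Levels near 0 counts, such as Sp5 and Lgr5 in KO replicate 5 and Rnf43 in KO replicate 6, rest on few reads and are imprecise, although both are deeper libraries.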

Other observations

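KO replicate 5, the library lowest in most of the Wnt targets, held high levels of other genes of the lists. Bmp4, a secreted growth factor gene, was at 54.0 CPM there, against 1.05 to 6.04 CPM in the other KO libraries and 2.88 to 4.34 CPM in WT. Sox4, a transcription factor gene, was at 139 CPM in KO replicate 5. Its range was 42.6 to 74.0 CPM over KO replicates 4, 6 and 7, 4.52 to 5.83 CPM over KO replicates 1, 2 and 3, and 16.3 to 44.6 CPM over WT. Wnt16 was at 7.62 CPM in KO replicate 5 and at most 0.427 CPM in all other libraries of either group. Wnt10a was at 0.544 to 10.9 CPM in KO, against 41.6 and 40.3 CPM in WT replicates 2 and 5 and at most 0.281 CPM in WT replicates 1, 3 and 4. Bmp4, Sox4, Wnt16 and Wnt10a were named after their values were seen, and no test was made of the levels of single libraries. In edgeR's comparison of KO with WT, Bmp4, Sox4 and Wnt10a had adjusted p = 0.475, 0.588 and 0.464, and Wnt16 did not pass the filter.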
